A study of Manis javanica with 3 samples.

Results

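BPI fold proteins are secreted or membrane-associated lipid-binding proteins that share the fold of bactericidal permeability-increasing protein (BPI). The genes described here were chosen by a text rule on the deposited annotation, as those whose NR or Swiss-Prot entry names a BPI fold-containing protein, latherin, a bactericidal permeability protein or a lipopolysaccharide-binding protein. The rule found 14 of 24220 genes. BPIFB1 and latherin (LATH) were selected on their levels in these same libraries, so all levels below are a description and nothing is read from a test of them. The tissues sampled were liver, salivary glands and small intestine, all from 1 Malayan pangolin (Manis javanica), a wild adult female that died during rescue. Each tissue gave 1 library, so there was no replicate check, and no p-value is given for a tissue difference. Total counts were 14568778 for liver, 10158924 for small intestine and 8318686 for salivary glands.

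In mammals the family falls into short and long forms, many of them made by glands and epithelia of the mouth, nose and airways, and its genes lie in clusters. Latherin is a surface-active member known from horse sweat and saliva, which wets hair and food. BPI and lipopolysaccharide-binding protein (LBP) bind the lipopolysaccharide (LPS) of bacterial outer membranes, BPI as a neutrophil antibiotic and LBP as a liver-made plasma protein that passes LPS to CD14 and toll-like receptor 4.

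The tissue labels were compared with marker lists. Gastric genes were abundant in the library labelled small intestine, where 14 of 16 genes found for the gastric list had an FPKM (fragments per kilobase of transcript, scaled to the mapped fragments of the library) above 1, the threshold for expressed. Their median FPKM there was 862, against 2.16 over all genes, and their summed FPKM was 165306. Pepsin A (PGA), a stomach protease, led with an FPKM of 94138, and acidic mammalian chitinase (CHIA), which cuts chitin, followed at 43108. Of 13 genes found for the enterocyte list, 1 had an FPKM above 1 in that library, 1 in salivary glands and 4 in liver. Found by Swiss-Prot or KEGG symbol, 4 of 22 genes did so in that library, 3 in salivary glands and 7 in liver. By product name, the gene in small intestine was villin (VIL1), a protein of the brush border, with an FPKM of 24.0 there, 25.7 in salivary glands and 21.2 in liver, and aminopeptidase N (ANPEP) followed at 0.758. The intestinal markers FABP1, FABP2, LCT, GUCA2A and CDX1 had counts of 0 there. FABP1, FABP2, LCT and GUCA2A also had 0 counts in both other libraries, and CDX1 had 5 in liver, so the first 4 do not separate the libraries. The library labelled small intestine thus held stomach markers at high levels, and VIL1 did not set it apart. Below, it is called the small intestine library after its label.

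In liver all 12 hepatocyte genes exceeded an FPKM of 1, with a summed FPKM of 37878, and the fibrinogen chains FGB (12822) and FGG (12649) led by FPKM. Of 15 genes found for the salivary gland list, 6 passed an FPKM of 1 in salivary glands, 11 in small intestine and 8 in liver. BHLHA15, a transcription factor of secretory cells, and the water channel AQP5 led the list in salivary glands with FPKM values of 95.9 and 94.3, and had 64.8 and 24.7 in liver. The summed FPKM of the list was 3757 in small intestine, 222.4 in salivary glands and 138.4 in liver. A lysozyme gene (LYZ) at 3582 made up most of the small intestine sum, and without it the sums were 175.1, 219.8 and 138.3. BHLHA15 and AQP5 made up most of the 219.8 in salivary glands. The median FPKM of the list was 2.29 in small intestine, 0.329 in salivary glands and 2.67 in liver, so by median salivary glands were lowest. The salivary list covered 9 of its 20 names, so most classical saliva proteins were not found by name.

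Of the 14 members, 5 had an FPKM above 1 in small intestine, 7 in salivary glands and 3 in liver. Of all genes, 59.4%, 56.3% and 57.0% did so in the same order. LBP and the gene for phospholipid transfer protein (PLTP) passed an FPKM of 1 in every library. The members together took 23.0% of all counts in small intestine, 8.10% in salivary glands and 0.676% in liver. As shares of FPKM these were 19.1%, 10.6% and 0.201%. Nearly all of each share came from a single gene, BPIFB1, LATH and LBP respectively.

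**Figure D1:**
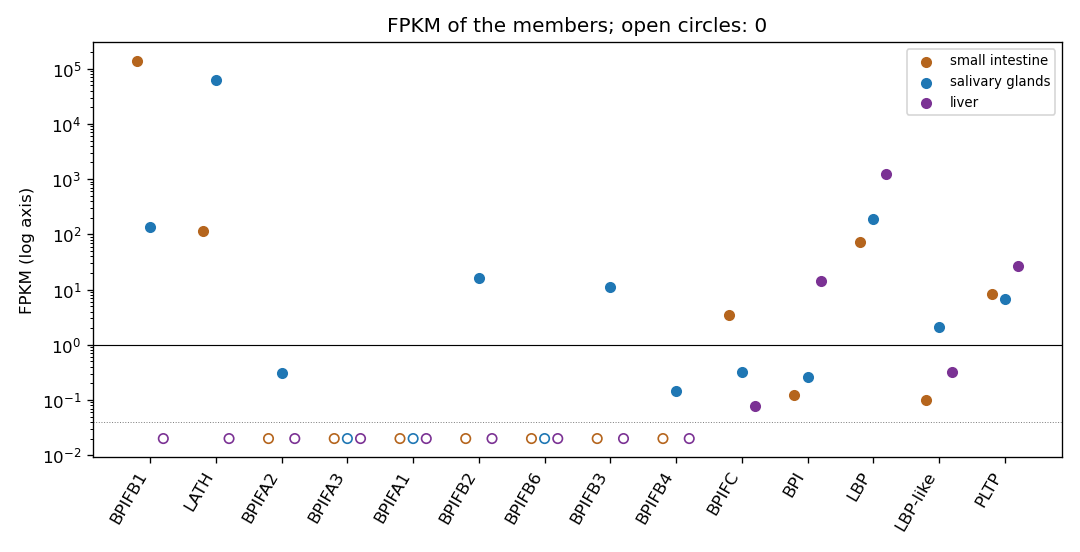
FPKM (log axis) of the 14 members in the 3 libraries, 1 point per library, with open circles for a value of 0 and a solid line at an FPKM of 1. BPIFB1 is highest in small intestine at 136163, LATH in salivary glands at 62922 and LBP in liver at 1212.

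BPIFB1, a long family member secreted by mucosal glands, was the gene with the highest FPKM of the small intestine library. It had 2332302 counts there, 2422 in salivary glands and 0 in liver. The corresponding FPKM values were 136163, 133 and 0. It took 23.0% of the small intestine counts (95% Wilson interval 22.9% to 23.0%) and 0.0291% of the salivary gland counts (0.0280% to 0.0303%). These intervals, and the limits given for counts of 0, cover counting error only. The share in small intestine was 788.5 times that in salivary glands (exact 95% interval 757.7 to 820.9). A count of 0 in liver allows up to 3 counts, or 2.06e-05% of that library, so the small intestine share was at least 1114908-fold higher than in liver. Since these are bulk tissues, fewer cells of a type and less RNA per cell cannot be told apart.

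LATH, the gene for latherin, was high in salivary glands, where its FPKM of 62922 ranked 2 among all genes. Its counts were 1007 in small intestine, 660855 in salivary glands and 0 in liver. Its FPKM was 114.8 in small intestine. It took 7.94% of the salivary gland counts (95% Wilson interval 7.93% to 7.96%) and 0.00991% of the small intestine counts (0.00932% to 0.0105%). LATH therefore had the opposite order to BPIFB1 over these 2 libraries. The salivary gland share of LATH was 801.4 times its small intestine share (exact 95% interval 753.4 to 853.4) and at least 385792-fold higher than in liver.

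The small values of BPIFB1 and LATH outside their main library were set beside those of other abundant genes, a choice made after the values were seen. In all, 6 genes had an FPKM above 1000 in small intestine and a count of 0 in liver. Their salivary gland FPKM was between 0.0311% and 0.0977% of their small intestine FPKM, with a median of 0.0819%, and the lowest, the trefoil peptide gene TFF1, rested on 1 salivary gland count. BPIFB1 was at 0.0977%, beside CHIA at 0.0928%, the proton pump subunit ATP4A at 0.0877% and PGA at 0.0762%. As shares of counts, the order differed, with CHIA at 0.138%, ATP4A at 0.129%, BPIFB1 at 0.127% and PGA at 0.115%. For the 3 genes above the same FPKM in salivary glands and at 0 in liver, the small intestine FPKM was 0.157% to 0.182% of the salivary value. LATH had 0.182%, and an odorant-binding protein-like gene and a gene named allergen Bos d 2 had 0.157% and 0.168%. As shares of counts both groups overlapped, at 0.0492% to 0.138% for the genes high in small intestine and 0.108% to 0.128% for those high in salivary glands. Each of these genes was taken for a high level in 1 library, and BPIFB1 and LATH are among them. Nothing is therefore read from the similar size of the percentages. Genes with liver counts were not included. Among those were the cobalamin carrier gene TCN1 (FPKM 1456 in small intestine and 58.5 in salivary glands) and a gastricsin-like gene (7953 and 6.38). The part of material or reads from the other library in the values of BPIFB1 and LATH was not tested.

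**Figure D2:**
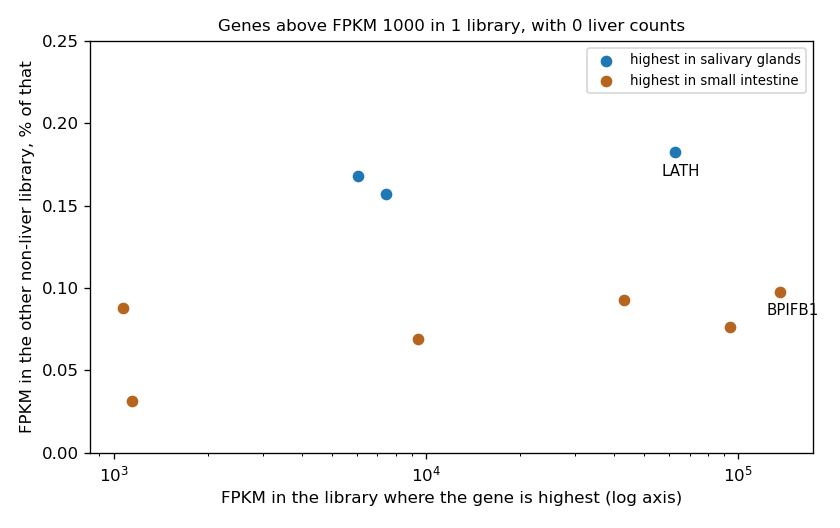
FPKM in the other of the small intestine and salivary gland libraries, as a percentage of the FPKM in the library where a gene is highest (vertical axis), against that highest FPKM (log axis), for the 9 genes above an FPKM of 1000 with 0 liver counts. Points for genes highest in small intestine lie between 0.0311% and 0.0977%, and those highest in salivary glands between 0.157% and 0.182%, a gap that is present in FPKM and not in shares of counts.

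LATH lay on the plus strand of scaffold NW_016538542.1 at 59460 to 76336 (the genome build is not named in the sources used here), with 3 short family members around it. BPIFA2, a parotid secretory protein in other mammals, ended 10652 bases before LATH and had 2 salivary gland counts and 0 in the other libraries. BPIFA3 began 7216 bases after LATH, followed by BPIFA1, a surface-active airway protein, and both had 0 counts in every library. These 4 genes were the only ones on the scaffold. The high salivary gland level was thus seen for 1 of 4 adjacent members.

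BPIFB1 lay on the minus strand of scaffold NW_016528336.1 at 61257 to 80666. The nearer of its 2 neighbours, gene2059, encodes an uncharacterized protein and had 2 counts in small intestine and 0 elsewhere. The other, gene2058, had 0 counts in each library. Neither had an FPKM above 1 in any of the 3 libraries. The scaffold holds only these 3 genes, so neighbours beyond its ends are not covered.

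Scaffold NW_016534220.1 held BPIFB2, BPIFB6, BPIFB3 and BPIFB4 in that order, all of them long family members. BPIFB2, at 124580 to 142030, had 301 salivary gland counts (FPKM 15.99) and 0 in both other libraries. BPIFB3, at 163883 to 180940, had 220 salivary gland counts (FPKM 11.1) and likewise 0 in the others. Against the limit of 3 counts, the salivary gland share of BPIFB2 was at least 122.5-fold higher than in small intestine and at least 175.7-fold higher than in liver. For BPIFB3 these bounds were 89.6-fold and 128.4-fold. BPIFB4 had 4 salivary gland counts and BPIFB6 had 0 in each library, so the expressed BPIFB2 and BPIFB3 were separated by a member at 0. The flanking SUN5, a nuclear envelope protein of sperm, had 11 counts in small intestine (FPKM 1.07) and 2 in salivary glands.

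**Figure D3:**
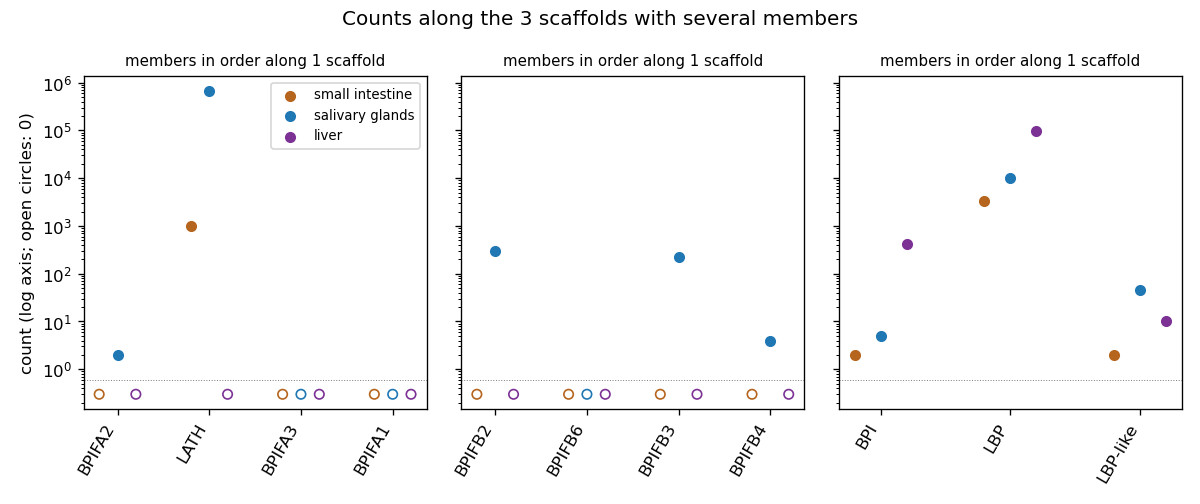
Counts (log axis) of members in their order along the 3 scaffolds that hold several of them, 1 point per library, with open circles for 0. LATH (660855 salivary gland counts) stands among members with at most 2 counts, and BPIFB2 (301) and BPIFB3 (220) are separated by BPIFB6 at 0.

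The RefSeq annotation of the newer assembly MJ_LKY, which was used for gene order only, matched 10 of the 14 members by symbol. There BPIFB1, BPIFA3, BPIFA2, BPIFB3, BPIFB6, BPIFB2 and SUN5 followed each other in this order within a run of 10 coding genes. In all, 9 matched members lay on the chromosome of BPIFB1, and BPIFC lay on another. Between BPIFA3 and BPIFA2 stood 1 coding gene without a family symbol, at the place LATH has on its scaffold. Coding genes without a family symbol also stood between BPIFB1 and BPIFA3 and between BPIFA2 and BPIFB3, so the place does not identify LATH. LATH, BPIFA1, BPIFB4 and the LBP-like gene were not matched, so their places there are not known. Thus BPIFB1, the short members BPIFA2 and BPIFA3, and the long members BPIFB2, BPIFB3 and BPIFB6, on separate scaffolds in the deposited files, lay in a single run in that assembly.

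LBP and BPI were highest in liver. LBP, at 412021 to 440364 on scaffold NW_016529949.1, had 3309 counts in small intestine, 10141 in salivary glands and 97359 in liver. Its FPKM was 73.7, 185.8 and 1212 in the same order, so LBP was expressed in each library. The liver share was 0.668% of counts (95% Wilson interval 0.664% to 0.672%), 5.48 times the salivary gland share (exact 95% interval 5.37 to 5.60) and 20.5 times the small intestine share (19.8 to 21.2). LBP took 0.195% of the FPKM in liver. By FPKM, LBP in small intestine was 6.08% and in salivary glands 15.3% of its liver level. Over the 12 hepatocyte genes these percentages had medians of 0.219% and 0.0118%, with the highest at 20.5% for albumin (ALB) in small intestine and 20.5% for the protease inhibitor SERPINA1 in salivary glands. FGB, FGG and APOA2 had counts of 0 in both of those libraries. The part of liver material in the LBP values was not tested.

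BPI, at 375151 to 403772 on the scaffold of LBP, had 417 liver counts (FPKM 14.3), 5 in salivary glands and 2 in small intestine. Its liver share was 47.6 times the salivary gland share (exact 95% interval 20.2 to 147.4). BPI is stored in neutrophils, so the neutrophil list was set beside it. Of 11 genes found for that list, 7 had an FPKM above 1 in liver, 5 in salivary glands and 4 in small intestine, with summed FPKM of 142.9, 99.1 and 401.5. S100A8, a calcium-binding protein of myeloid cells, led the liver and small intestine libraries at FPKM values of 104.6 and 354.5, and lactotransferrin (LTF) led the salivary glands at 59.1. Without S100A8 the sums were 38.3 in liver, 85.3 in salivary glands and 47.0 in small intestine. The median FPKM of the list was 3.99 in liver, 0.525 in salivary glands and 0.302 in small intestine. Found by Swiss-Prot or KEGG symbol instead, 7 genes had medians of 16.2, 13.8 and 10.2, the same order with smaller gaps. Single genes differed in order. The receptor gene CSF3R (507 counts in liver, 6 in salivary glands and 0 in small intestine), MMP9 and CAMP had the order of BPI. S100A8 and S100A12 (FPKM 16.2, 4.30 and 19.98 in liver, salivary glands and small intestine) were highest in small intestine, and LTF in salivary glands. LCN2 (FPKM 4.12, 19.9 and 20.3 in the same order) was lowest in liver. It had 142 counts in small intestine and 168 in the smaller salivary gland library, so its highest library differs between FPKM and share of counts. The granule protease ELANE had 0 counts in each library, and the 2 genes named CTSG had 0 apart from 1 count in liver. The sum and the median of the list thus ran in different orders, and the part of neutrophils in the BPI values was not tested. All 9 genes found for the macrophage list passed an FPKM of 1 in liver, led by C1QC at 366.7 and C1QB at 276.4, with a summed FPKM of 765.6 there against 48.9 in small intestine and 39.2 in salivary glands. Their median FPKM was 10.02 in liver, 0.400 in small intestine and 0.744 in salivary glands. By symbol the contrast was much smaller, as 10 of 12 genes passed in liver, 9 in small intestine and 6 in salivary glands, with medians of 7.16, 5.04 and 1.62.

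The third member on this scaffold, an LBP-like gene at 466536 to 490617, was highest in salivary glands with 46 counts (FPKM 2.13), beside 10 in liver and 2 in small intestine. LBP and the LBP-like gene have the same Swiss-Prot hit, but their sequences were not compared. How fragments that align to both would be counted is not given in the sources used here. The salivary gland share of the LBP-like gene was 8.06 times its liver share (exact 95% interval 4.01 to 17.9), opposite in direction to LBP. On the other side of BPI, the uncharacterized KIAA1755 homolog had its highest FPKM in liver at 43.7, beside 1.34 in small intestine and 0.363 in salivary glands. The titin-like gene next to the LBP-like gene had FPKM values of 8.35 in small intestine, 7.95 in salivary glands and 22.4 in liver. RALGAPB, which regulates small GTPases, had 4.21, 4.27 and 2.08 in the same order, and the new genes Manis_javanica_newGene_1719 and Manis_javanica_newGene_1720 stayed at 2.90 or below.

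BPIFC and PLTP lay apart from the clusters. BPIFC, a long family member found in skin in other mammals, had 54 counts in small intestine (FPKM 3.42), 6 in salivary glands and 3 in liver. Its small intestine share was 7.37 times the salivary gland share (exact 95% interval 3.17 to 21.0). The RNA ligase gene RTCB beside it had FPKM values of 24.4, 51.0 and 99.6 over small intestine, salivary glands and liver, the ubiquitin ligase subunit FBXO7 had 10.3, 20.4 and 14.9, and PWP1, a protein of ribosome production, had 14.6, 11.3 and 19.8. A gene with an NR entry for a hypothetical protein had 5.28, 4.17 and 9.99. BPIFC thus had a different order over the libraries from each of these neighbours.

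PLTP moves phospholipids between plasma lipoproteins. It had 107 counts in small intestine, 105 in salivary glands and 677 in liver, with FPKM values of 8.46, 6.72 and 27.1. The liver share was 4.41 times the small intestine share (exact 95% interval 3.59 to 5.46) and 3.68 times the salivary gland share (2.99 to 4.57). PLTP overlaps CTSA, the gene of lysosomal protective protein, on the opposite strand. The libraries were unstranded, so fragments in the overlap cannot be told apart. CTSA had FPKM values of 46.4 in small intestine, 46.6 in salivary glands and 27.9 in liver, the reverse of PLTP for liver. Within 100 kb, DNTTIP1 (37.6, 41.1 and 52.8) and matrix metalloproteinase-9 (0.738, 1.40 and 3.99) also had their highest FPKM in liver, whereas the FPKM of PCIF1, NEURL2, ACOT8, SNX21, ZNF335 and TNNC2 was lower in liver than in small intestine. ZSWIM1 had 3.09, 2.93 and 3.57. Around all members, 26 other genes lay within 100 kb, of which 20 were expressed in some library by that threshold.

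The differences between libraries were also read from counts scaled by TMM (trimmed mean of M values), with 0.5 CPM (library-scaled counts) added, for genes with at least 10 counts in 1 of the 2 libraries. A gene was called when this ratio was at least 2-fold. Of the 14 members, 9 reached 10 counts in a library. The other 5 were BPIFA1, BPIFA3 and BPIFB6, with 0 counts throughout, and BPIFA2 and BPIFB4. Of all genes, 13.0% had 0 counts in each library, beside 21.4% of the members.

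Between small intestine and salivary glands, 8 members could be compared. BPIFB1 and BPIFC were higher in small intestine, 2 members beside 19.2% of all genes compared, and LATH, BPIFB2, BPIFB3, LBP and the LBP-like gene were higher in salivary glands, 5 members beside 14.9% of all genes. These percentages depend on the scaling, since with library totals the genes higher in small intestine fell from 3168 to 2370 and those higher in salivary glands rose from 2467 to 4291. The log2 difference of small intestine over salivary glands was 10.08 for BPIFB1, -9.18 for LATH and -1.45 for LBP. Because the members were chosen with these levels known, nothing is read from the counts of members against the percentages of all genes.

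Between small intestine and liver, 7 members could be compared. BPIFB1, LATH and BPIFC were higher in small intestine, 3 members beside 22.8% of all genes, and LBP, BPI and PLTP were higher in liver, 3 members beside 21.9%. LBP had a log2 difference of small intestine over liver of -4.12 and PLTP of -1.86. Between salivary glands and liver, BPIFB1, LATH, BPIFB2, BPIFB3 and the LBP-like gene were higher in salivary glands, 5 members beside 20.9% of all genes, and LBP, BPI and PLTP were higher in liver, 3 members beside 22.9%. The LBP-like gene had a log2 difference of salivary glands over liver of 2.14 and LBP of -2.67. The 3 comparisons share libraries. Library totals in place of TMM moved the median log2 difference of all genes from -0.01 to -0.45 between small intestine and salivary glands. Each of the 21 member calls remained, most of them far past the 2-fold limit.

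LBP and its partners in LPS recognition were taken from a list of 15 names, of which 13 were found, as 14 genes. Their median FPKM was 2.46 in small intestine, 4.69 in salivary glands and 4.26 in liver, against 2.16, 1.76 and 1.89 over all genes. In liver 13 of the 14 passed an FPKM of 1, and in each of the other libraries 9 did. LBP led the list in each library.

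CD14, which takes LPS from LBP, had FPKM values of 12.2 in small intestine, 26.9 in salivary glands and 84.1 in liver, the same order as LBP. The receptor TLR4 had 0.430, 7.73 and 3.40, and its partner LY96, which holds the lipid, had 0.712, 5.42 and 1.72. TLR4 had 20, 335 and 170 counts and LY96 only 2, 16 and 6, so the order of LY96 rests on few fragments. Both receptor genes were highest in salivary glands, where LBP was intermediate. CD180 and LY86, a related receptor pair, had 0 counts in small intestine and FPKM values of 0.862 and 3.96 in liver.

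Of the adapters and kinases, MYD88 had FPKM values of 26.5, 31.4 and 56.6 over small intestine, salivary glands and liver, TIRAP 2.55, 2.997 and 2.80, and TICAM1 2.38, 0.548 and 1.45. TRAF6, a ubiquitin ligase, had 5.73, 3.97 and 4.56, and the IRAK4 gene with the higher FPKM had 9.72, 6.14 and 8.07. AOAH, which removes acyl chains from LPS, had 9.64 in liver and 0.377 or less elsewhere. SCARB1, a lipoprotein receptor that also binds LPS, had 23.6, 29.8 and 18.6.

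By the same 2-fold rule, 11 genes of this list were compared between small intestine and salivary glands. TICAM1 and the second IRAK4 gene were higher in small intestine, 2 genes beside 19.2% of all genes. LBP, CD14, TLR4 and LY96 were lower there, 4 genes beside 14.9%. The second IRAK4 gene had only 20 counts in small intestine and 8 in salivary glands, with a log2 difference of 1.09. The first IRAK4 gene, at 0.55, was not called. Of 13 compared between small intestine and liver, 7 were higher in liver and 0 in small intestine, beside 21.9% and 22.8% of all genes. Of 14 compared between salivary glands and liver, 7 were higher in liver and 2 (TLR4 and LY96) in salivary glands, beside 22.9% and 20.9% of all genes. The median log2 differences were -0.41, -1.28 and -1.06, beside -0.01, -0.07 and -0.06 over all genes compared. LBP, itself a member, is among the genes in these counts and medians. The list was chosen with earlier results of these data known, so nothing is read from its counts and medians against all genes. Of the lipid transfer relatives, PLTP was found as 2 genes and CETP was not found by name.

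**Figure D4:**
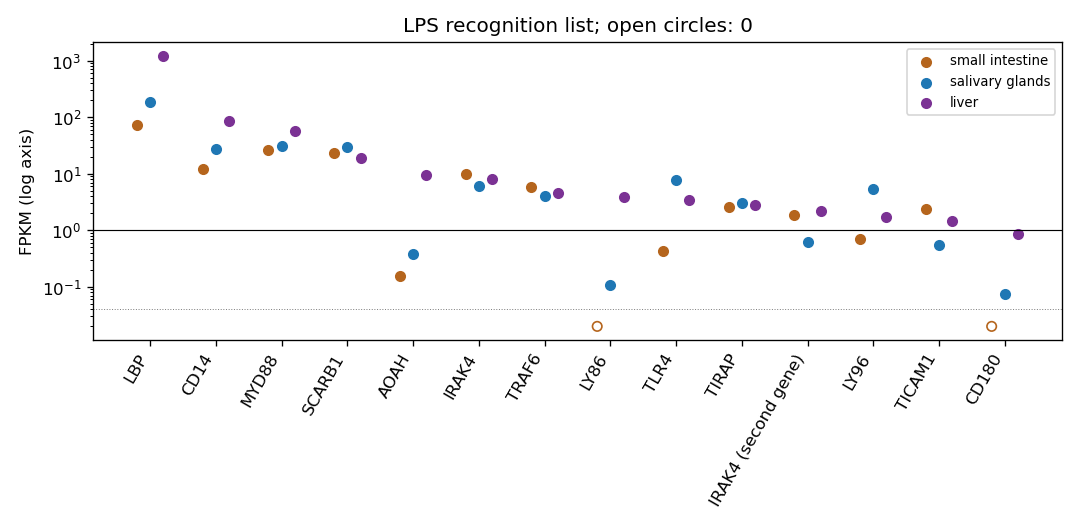
FPKM (log axis) of the 14 genes found for the LPS recognition list, ordered by liver FPKM, 1 point per library, with open circles for 0 and a line at an FPKM of 1. LBP reaches 1212 in liver, and TLR4 (7.73) and LY96 (5.42) are highest in salivary glands.

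The 5 genes whose log2(FPKM + 1) over the 3 libraries lay closest to BPIFB1 by Euclidean distance were PGA, CHIA, the gastricsin gene PGC, a gastricsin-like gene and the cobalamin carrier TCN1. PGA, at a distance of 1.03, had FPKM values of 94138 in small intestine, 71.7 in salivary glands and 0 in liver. CHIA followed at 2.38, PGC at 5.67, the gastricsin-like gene at 6.02 and TCN1 at 6.82. Ranked by TMM-scaled CPM, 3 of these 5 remained. The likeness rests on 3 libraries, and since nearness was taken over these same libraries, the high small intestine levels follow from the choice.

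Closest to LATH were gene21524 and Manis_javanica_newGene_4003, both without an NR or Swiss-Prot entry, at distances of 1.60 and 3.16. Their salivary gland FPKM was 36170 and 80008, and their liver FPKM was 1.43 and 7.47. An odorant-binding protein-like gene (salivary gland FPKM 7480), a submaxillary mucin-like gene (5740) and the allergen Bos d 2 gene (6076), a lipocalin in cattle, came next. Since nearness to LATH was taken over these same libraries, the high salivary gland levels of these genes follow from the choice.

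Airway and pancreatic markers were set beside the members as well. Of 12 genes found for the airway list, 4 had an FPKM above 1 in salivary glands, 3 in small intestine and 3 in liver, with summed FPKM of 11.7, 7.92 and 11.4. SFTPD, a surfactant lectin, led in salivary glands at 7.19 and in liver at 5.13, and TPPP3 led in small intestine at 3.47. The surfactant gene SFTPC had 0 counts in each library. Of 7 genes found for the pancreatic acinar list, 3 passed in small intestine, 2 in salivary glands and 3 in liver, and the digestive enzymes AMY2 (5.39) and CEL (16.96) had the highest FPKM of the list in salivary glands and in liver.

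The names of the members depended on the database. The NR text alone met the rule for 12 of the 14 genes. PLTP entered through Swiss-Prot, where its best hit was BPI, and BPIFA1 did so because its NR entry spells the family name without a hyphen. The Swiss-Prot text alone met the rule for 11. BPIFB4 and BPIFC also had BPI as their Swiss-Prot hit, BPIFB3 had LBP, and BPIFA3 had BPIFA1. BPIFB2 and BPIFB6 had no Swiss-Prot entry, and the hit of BPIFA2 there was a bovine protein under another name, SPLUNC2B. BPIFA1, BPI and LBP carried the same protein name in both databases, apart from spelling. For BPIFB1 and LATH the NR entry adds the ending -like, which the Swiss-Prot entry lacks. Members are called by the NR name here, without that ending for BPIFB1 and LATH and with it for the LBP-like gene.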

How the data were processed

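The authors aligned cleaned reads with TopHat2 to the M. javanica genome, without strand, and built genes outside the annotation with Cufflinks. Each deposited count is a whole number of fragments, and the tool behind these counts and the genome build are not given in the sources used here. For FPKM the authors give a formula of fragments, transcript length and mapped fragments, and also name RSEM. With 1 length per gene, the ratio of count share to FPKM in salivary glands over that in small intestine would be equal for all genes, but it was 1.30 for BPIFB1, 1.46 for LATH and 1.48 for LBP, so folds differ between counts and FPKM. The authors also deposited a text annotation of each gene, read from the NR, Swiss-Prot, KEGG and TrEMBL columns.

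Members and lists were chosen with earlier results of these data known. Genes named are the members, neighbours within 100 kb with an FPKM above 1, the 5 nearest genes to BPIFB1 and LATH, the LPS and lipid transfer lists and the 2 leading genes of each marker list, except that 1 of these genes is not reported here. Any other gene was named with its values known. List genes were found by NR product name, a choice made after Swiss-Prot symbols proved to cover paralogs. TMM factors came from edgeR 4.0.16 in R 4.3.3. Python 3.11.15, pandas 2.3.3, numpy 2.4.6, scipy 1.17.1 and matplotlib 3.10.9 were used for the rest. The 2-fold call was tested on simulated data drawn from a profile shared by both libraries, which does not cover the differences in composition here. Shares carry 95% Wilson intervals, ratios of shares exact 95% binomial intervals, and a count of 0 is limited at 3 counts.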

Additional observations from a re-analysis of the deposited data

How the results depend on the processing

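The 21 member differences of at least 2-fold were recomputed under 4 alternatives that change the ratio. These were library totals, totals without the 10 most abundant genes of each library, deposited FPKM, and 1 CPM added. All 84 values kept their direction and call. The members were chosen with these levels known, and most differences lay far past the 2-fold limit, so rescaling could hardly undo them. Sizes did change. The log2 difference of LATH, small intestine over liver, was 7.87 in the main setting and 6.88 with 1 CPM added. No count filter and a 4-fold threshold leave the ratio as it is and can change calls only. Under these, 2 calls were lost, both at 4-fold, LBP between small intestine and salivary glands and PLTP between small intestine and liver. An exact binomial q-value under 0.005 was also added to the 2-fold rule. It compares fragments of 2 libraries and not tissues, for members chosen with these levels known, so nothing is read from it.

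The share of BPIFB1 in the small intestine library was 22.958% of counts, 19.04% of FPKM and 28.963% without the 10 most abundant other genes. For LATH in salivary glands these were 7.94%, 10.5% and 9.40%, and for LBP in liver 0.668%, 0.195% and 0.797%. Of the 5 genes nearest BPIFB1, 3 were kept on TMM-scaled CPM.

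Library totals moved the median log2 difference of all genes from -0.07 to -0.29 between small intestine and liver and from -0.06 to 0.14 between salivary glands and liver. Totals without the 10 most abundant genes of each library moved these to 0.23 and 0.25. The percentage of called genes that were higher in small intestine than in salivary glands was 56.2% with TMM and 35.6% with library totals, where calls higher in salivary glands rose from 2467 to 4291. Without the 10 most abundant genes, the percentage higher than in liver moved from 51.0% to 61.8% for small intestine and from 47.7% to 59.5% for salivary glands. With library totals these percentages were 42.9% and 55.6%, and with deposited FPKM 49.2% and 42.7%. At 4-fold, calls between small intestine and salivary glands numbered 1432 and 716 in place of 3168 and 2467, between small intestine and liver 2068 and 1573 in place of 3968 and 3811, and between salivary glands and liver 1623 and 1712 in place of 3585 and 3924, since fewer genes pass a stricter threshold.

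By Swiss-Prot or KEGG symbol, added after seeing the data, 23 genes in place of 14 were found for the LPS list, and 16, 17 and 19 in place of 9, 9 and 13 passed an FPKM of 1 in small intestine, salivary glands and liver. For the enterocyte list 4 in place of 1 passed in small intestine. For the gastric list 11 of 15 in place of 14 of 16 passed there, with a median of 651.8 in place of 862.4. In salivary glands 8 of 19 in place of 6 of 15 passed for the salivary gland list, and in liver all 12 hepatocyte genes passed either way. The cause of the moves in shares was not tested. With 1 library a tissue, no replicate could be left out, and members with few counts (BPIFA2, BPIFB4) are limited by depth.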
